A study of Mus musculus with 12 samples.

Results

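The immediate early genes examined here are 10 genes chosen by symbol (Fos, Fosb, Fosl2, Jun, Junb, Egr1, Egr3, Nr4a1, Arc and Ier2), out of 56748 genes in the deposited table; each symbol stood on 1 identifier, and all 10 were among the 18334 genes with enough counts to be tested. They were measured by poly-A RNA sequencing of whole retinas, 1 retina per mouse and 3 mice in each of 4 groups: JR5558 at 8 weeks of age, C57BL/6J at 8 weeks, JR5558 at 4 weeks and C57BL/6J at 4 weeks. JR5558 is an inbred mouse line known for spontaneous new vessels under the retina and for carrying the rd8 allele of Crb1; C57BL/6J served as the age-matched wild type, and the labels name no treatment and no genotype beyond the strain. A strain difference therefore cannot be assigned to 1 allele.

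Immediate early genes are switched on within minutes of a stimulus from signals already present in the cell, without new protein synthesis, and their transcripts are short-lived. Most encode transcription factors: FOS and JUN proteins pair as the AP-1 factor, EGR proteins are zinc finger factors, and NR4A1 is an orphan nuclear receptor. Several feed back on the kinase and calcium signals that induce them. In retina they respond to light and to synaptic activity in inner retinal neurons, and to injury in glia.

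Library totals ran from 18029611 to 23739886 counts. JR5558 replicate 3 at 4 weeks stood apart on the second principal component of the 500 most variable genes, at -29.0 against -4.8 to 16.3 in the other libraries. By a chi-square of raw counts between libraries of a group, C57BL/6J replicate 3 at 4 weeks differed most. Its chi-square per degree of freedom was 24.3 and 23.9 against replicates 1 and 2, beside 14 and 12.6 for JR5558 replicate 3 of that age. Lens markers in those C57BL/6J retinas summed to 10.1, 7.12 and 134 CPM in replicates 1 to 3. The labels give no sex. The Y-linked gene Ddx3y had 1323 to 1846 counts in the JR5558 retinas of 4 weeks and 0 in every other library, while Xist, the RNA that silences an X chromosome, had 0 to 5 counts in those retinas and 7772 to 22988 elsewhere. Wherever the 4-week JR5558 group enters a comparison, this sex-linked difference cannot be told apart from strain or age. Marker genes of rods, Müller glia, bipolar, amacrine and ganglion cells were present in every group, as the retina label requires. In bulk tissue, fewer cells of a type and less RNA per cell cannot be told apart.

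Among themselves the members fell into an abundant and a scarce set by the authors' FPKM, which is a level per gene length. Over the 12 libraries Ier2 had a median of 18.9 FPKM (14.0 to 24.1), Jun 18 (14.4 to 26.4), Fos 17.8 (7.33 to 26.2), Egr1 13 (4.10 to 31.1), Junb 12.7 (7.95 to 26.0) and Nr4a1 12.1 (7.41 to 20). The ranges of each neighbouring pair in this order overlapped. The other 4 lay below all of these: Fosl2 had a median of 0.879 FPKM (0.619 to 1.46), Arc 0.826 (0.287 to 1.21), Fosb 0.753 (0.399 to 1.2) and Egr3 0.336 (0.188 to 0.789), again with overlapping neighbours. The lowest Nr4a1 value was above the highest value of any of these 4. Egr3 and Arc rested on few reads, 16 to 79 and 19 to 71 counts per library.

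RefSeq's table of promoters (GRCm38.p6) held 6 of the 10 members, and the 250 bases before the start are shown for 4 of them: Junb and Fosl2, which were called between the strains, and Fos and Nr4a1, which were not. Capitals mark matches to a set of motifs searched on both strands. The short site of the cyclic AMP response element (CRE) was read as TGACG. The full CRE, which would contain the short site, was read as TGACGTCA. The AP-1 site was read as TGANTCA, with N for any base. The EGR site was read as GCGNGGGCG, and the TATA box by the letters TATAAA. The CArG box of serum response factor was searched as well.
Junb (chr8:84978749-84978998, minus strand): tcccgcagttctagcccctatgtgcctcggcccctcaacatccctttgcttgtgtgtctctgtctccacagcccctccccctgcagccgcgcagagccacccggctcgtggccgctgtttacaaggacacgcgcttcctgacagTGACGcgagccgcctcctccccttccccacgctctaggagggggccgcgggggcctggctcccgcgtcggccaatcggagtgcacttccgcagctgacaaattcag
Fosl2 (chr5:32136222-32136471, plus strand): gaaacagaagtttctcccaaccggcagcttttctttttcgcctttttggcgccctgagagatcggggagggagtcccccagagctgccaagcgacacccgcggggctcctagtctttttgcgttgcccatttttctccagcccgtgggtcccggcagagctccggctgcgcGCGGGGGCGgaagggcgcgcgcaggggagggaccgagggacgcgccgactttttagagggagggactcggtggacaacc
Fos (chr12:85473640-85473889, plus strand): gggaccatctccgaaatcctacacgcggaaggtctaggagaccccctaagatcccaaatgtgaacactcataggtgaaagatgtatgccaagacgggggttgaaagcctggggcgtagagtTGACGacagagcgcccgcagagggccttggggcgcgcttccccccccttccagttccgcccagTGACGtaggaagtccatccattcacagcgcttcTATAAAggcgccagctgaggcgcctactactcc
Nr4a1 (chr15:101266596-101266845, plus strand): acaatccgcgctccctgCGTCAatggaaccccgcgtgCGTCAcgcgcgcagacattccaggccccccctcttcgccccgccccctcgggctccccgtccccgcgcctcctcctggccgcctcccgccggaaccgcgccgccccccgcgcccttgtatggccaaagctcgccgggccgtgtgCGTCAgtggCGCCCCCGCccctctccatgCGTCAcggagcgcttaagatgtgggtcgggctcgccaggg
Counted back from the transcript start, Junb had 1 short CRE site beginning at -106, Fos had 2, at -129 and -66, and a TATA box at -33, and Nr4a1 had 4 short CRE sites, at -233, -213, -69 and -40, with an EGR match at -60. Fosl2 had no short CRE site in this window and 1 EGR match, at -79. Of the 6 promoters, 4 (Fos, Fosb, Junb and Nr4a1) held the short CRE site, which 17.8% of 32851 windows held, and 3 (Fosb, Fosl2 and Nr4a1) held the EGR motif, which 4.70% held. Within these 250 bases none of the 6 held the full CRE (1.55% of windows), the AP-1 motif (6.75%) or a CArG box (1.47%). Sequence farther upstream was not searched. Members called between the strains and members not called both stood with and without the short CRE site.

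At 8 weeks, the comparison asks how the retina of JR5558 differs from that of wild type. Egr3, Junb and Fosl2 were higher in JR5558 retinas, by 2.93-fold, 1.95-fold and 1.82-fold, and no member was lower. These 3 of 10 members were called (adjusted p under 0.05, edgeR's quasi-likelihood test with Benjamini-Hochberg adjustment over all 18334 genes), where 2.54% of all tested genes were called higher, 2.63% lower and 5.18% in either direction. The members' median log2 fold change was 0.56, beside 0.00 for all tested genes. In 6 of 10 members (Fos, Fosb, Fosl2, Junb, Egr3 and Nr4a1) every JR5558 retina lay above every C57BL/6J retina, a separation in this direction that 14.9% of tested genes showed, with 30.2% in either direction.

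**Figure D1:**
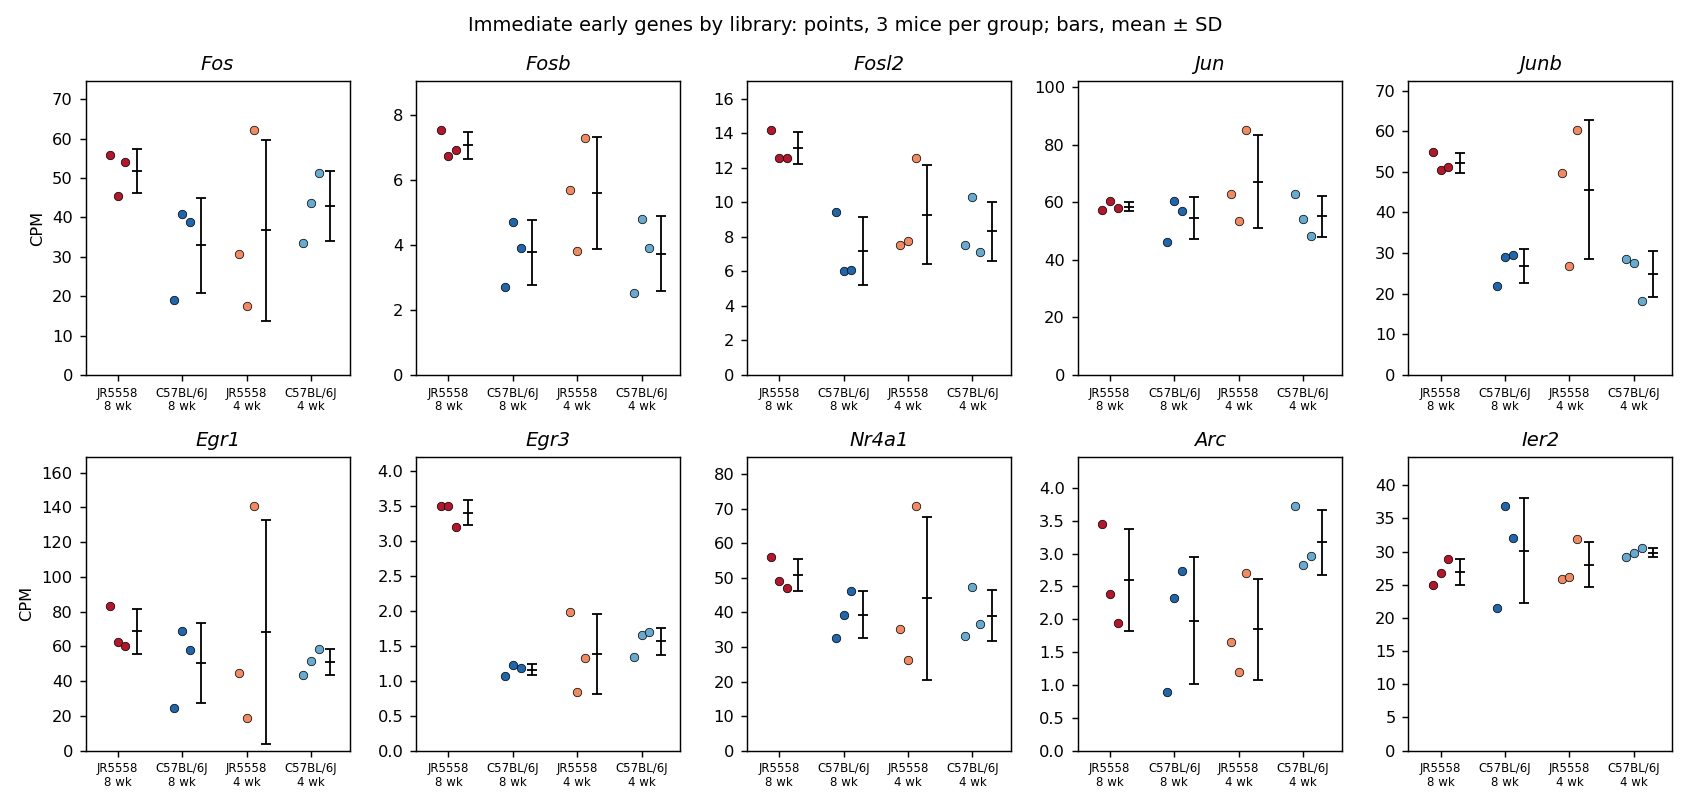
Levels of the 10 members in CPM (counts scaled to the library size) for each retina, with the 4 groups side by side and each panel's axis starting at 0; points are mice and bars are mean ± SD, n = 3. The 8-week JR5558 points lie close together, and the 4-week JR5558 points of Fos, Egr1 and Nr4a1 spread widely, with Egr1 at 18.5 to 141 CPM.

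Egr3, a zinc finger factor downstream of synaptic and growth factor signals, had 3.50, 3.50 and 3.19 CPM in the JR5558 retinas of 8 weeks, against 1.07, 1.22 and 1.18 CPM in C57BL/6J. The groups did not overlap, and both were tight. The log2 fold change was 1.55 ± 0.32 (SE, n = 3 mice per group here and below), with an adjusted p of 0.00510 by edgeR. Egr1, the family member that most cells induce first, had 83.4, 62.3 and 60.3 CPM in JR5558 and 24.7, 68.7 and 57.8 CPM in C57BL/6J. Those groups overlapped, and replicate 1 of C57BL/6J was the low sample (log2 fold change 0.45 ± 0.45, edgeR adjusted p = 0.682). The Egr3 call held in all 6 fits that left out 1 library, with adjusted p of 0.0210 to 0.0274.

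Junb, the JUN protein that activates transcription less strongly than JUN itself at many sites, had 55.0, 50.5 and 51.2 CPM in JR5558 at 8 weeks and 22, 29.0 and 29.5 CPM in C57BL/6J. All JR5558 retinas lay above all C57BL/6J retinas (log2 fold change 0.96 ± 0.21, edgeR adjusted p = 0.00903), a call that ended without C57BL/6J replicate 1 (0.84, adjusted p = 0.0715). Jun, the founding member of the family, had 57.3, 60.3 and 57.9 CPM in JR5558 and 46.3, 60.3 and 57.1 CPM in C57BL/6J. Its groups overlapped, and it was not called (0.10 ± 0.14, adjusted p = 0.777). Within each library the ratio of Junb to Jun counts, which library scaling cannot change, was 0.959, 0.837 and 0.884 in JR5558 against 0.476, 0.481 and 0.517 in C57BL/6J.

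Strand use in the counting is not stated, and 351 bases of the Junb locus overlapped Prdx2, a peroxide-reducing enzyme gene on the other strand. Prdx2 had 3704 to 6099 counts per library and log2 fold changes of 0.27 ± 0.08 at 8 weeks (edgeR adjusted p = 0.0594) and 0.26 ± 0.08 at 4 weeks (adjusted p = 0.0663). Its share in the Junb values was not tested. Jun overlapped the antisense transcript Junos by 689 bases, with 13 to 33 Junos counts per library, and Nr4a1 overlapped an unnamed gene on its own strand that had 1 to 31 counts.

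Of the FOS family, only Fosl2 passed at 8 weeks. Fosl2, which encodes the more slowly induced and longer-lived FRA-2, had 14.2, 12.6 and 12.6 CPM in JR5558 and 9.43, 6.03 and 6.09 CPM in C57BL/6J. The groups were apart (log2 fold change 0.87 ± 0.21, edgeR adjusted p = 0.0212), but the call ended in 4 of 6 fits that left out 1 library: adjusted p was 0.0605 to 0.113, and it stayed below 0.05 only in the fits without C57BL/6J replicate 1 and without JR5558 replicate 2. Fosb, whose splice form deltaFosB accumulates with repeated stimulation in brain, had 7.53, 6.74 and 6.91 CPM in JR5558 against 2.71, 4.70 and 3.90 CPM in C57BL/6J. The groups did not overlap, and the log2 fold change of 0.91 ± 0.26 just missed the threshold (edgeR adjusted p = 0.0516). It passed with DESeq2 (adjusted p = 0.0274), with RLE normalization (0.0498), in the fit of the 8-week groups alone (0.00585) and with no filter (0.00327), and without C57BL/6J replicate 1 it stood at 0.71 (adjusted p = 0.247). Fos, the prototype immediate early gene, had 55.8, 45.5 and 54.1 CPM in JR5558 and 19.1, 40.8 and 38.9 CPM in C57BL/6J. All JR5558 values were above all C57BL/6J values, and it was not called (0.66 ± 0.32, edgeR adjusted p = 0.292). In the fit of the 8-week groups alone, Fos passed (0.66, adjusted p = 0.0277), as did Nr4a1 (0.37, adjusted p = 0.0303).

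The other members were not called at 8 weeks. Nr4a1, an orphan receptor induced by calcium and cyclic AMP, had 56.0, 49.0 and 47.2 CPM in JR5558 and 32.5, 39.3 and 46.2 CPM in C57BL/6J (log2 fold change 0.37 ± 0.24, edgeR adjusted p = 0.480). The groups were apart by a narrow gap. Arc, an effector that acts at synapses on glutamate receptor traffic rather than on transcription, had 3.45, 2.39 and 1.95 CPM in JR5558 and 0.887, 2.32 and 2.73 CPM in C57BL/6J (0.40 ± 0.38, adjusted p = 0.655). Ier2, a nuclear protein induced with FOS and JUN, had 25.0, 26.7 and 28.9 CPM in JR5558 and 21.5, 36.9 and 32.0 CPM in C57BL/6J (-0.16 ± 0.15, adjusted p = 0.635). Both overlapped between strains, and Ier2 was the one member with a negative value. Replicate 1 of C57BL/6J was the lowest of its group for 9 of 10 members, Fosl2 being the exception.

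The authors' deposited table had 5 members past an adjusted p of 0.05 at 8 weeks: Fosb (adjusted p = 0.00257), Fosl2 (0.000130), Junb (3.02e-16), Egr3 (0.000156) and Nr4a1 (0.0162). Its log2 fold changes for them were 0.91, 0.87, 0.97, 1.56 and 0.37. At 4 weeks the authors' deposited table had 0 members past 0.05, with Junb at an adjusted p of 0.282, and in the age comparison of JR5558 it had 1, Egr3. The share of all genes past 0.05 in the authors' comparisons is not given here, so these member counts have no background beside them.

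**Figure D2:**
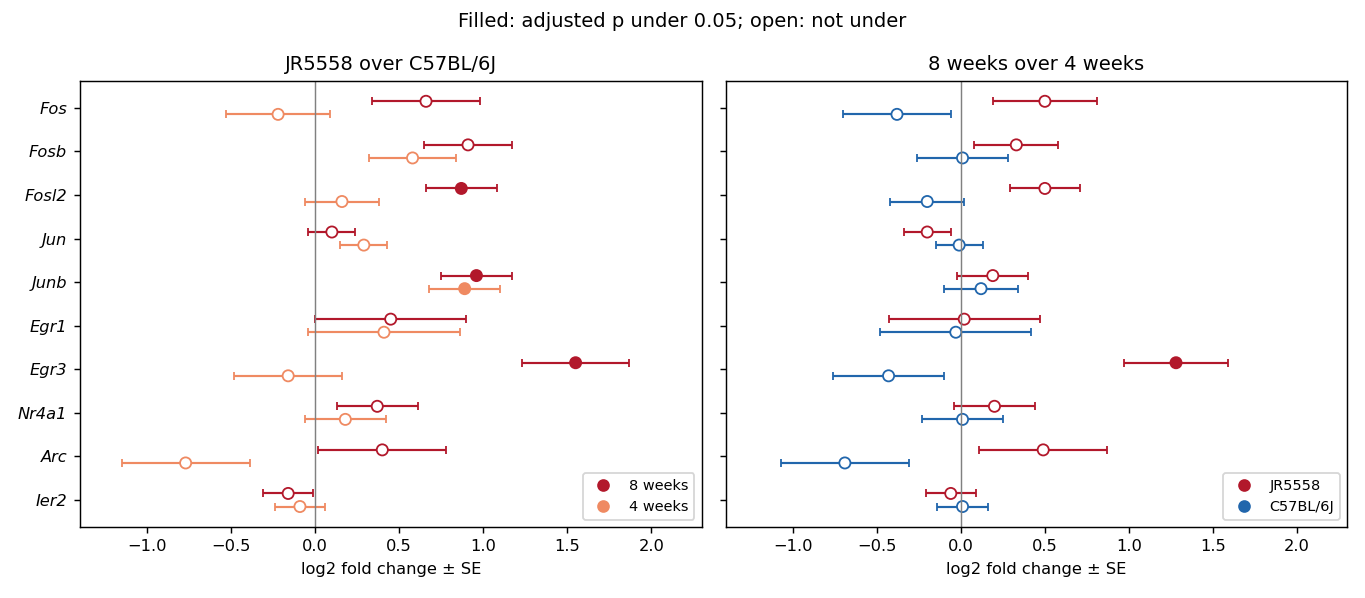
Log2 fold changes of the 10 members with SE (horizontal axis), JR5558 over C57BL/6J at each age on the left and 8 over 4 weeks in each strain on the right; filled points had an adjusted p under 0.05 by edgeR. Junb is filled at both ages, Egr3 and Fosl2 at 8 weeks on the left, and Egr3 in JR5558 on the right.

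At 4 weeks Junb was the 1 member of 10 called between the strains, where 3.27% of tested genes were called higher, 2.90% lower and 6.16% in either direction. Junb had 49.8, 26.8 and 60.3 CPM in JR5558 and 28.5, 27.6 and 18.2 CPM in C57BL/6J. Replicate 2 of JR5558 lay inside the C57BL/6J range, and the log2 fold change was 0.89 ± 0.21 (edgeR adjusted p = 0.0155). The call ended without C57BL/6J replicate 3 (0.71, adjusted p = 0.0557), without JR5558 replicate 1 (0.82, 0.0508) or 3 (0.64, 0.0867), and in a fit of the 6 libraries of that age alone (0.88, 0.0826). The ratio of Junb to Jun counts was 0.793, 0.501 and 0.709 in JR5558 and 0.455, 0.508 and 0.377 in C57BL/6J, so the strains overlapped in replicate 2 of each.

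No other member passed at 4 weeks, with log2 fold changes of -0.77 to 0.58 and edgeR adjusted p of 0.236 to 0.844. Fosb had 5.69, 3.82 and 7.27 CPM in JR5558 and 2.51, 4.78 and 3.90 CPM in C57BL/6J (log2 fold change 0.58 ± 0.26). Arc had 1.65, 1.2 and 2.70 CPM in JR5558 and 3.73, 2.82 and 2.96 CPM in C57BL/6J (-0.77 ± 0.38, edgeR adjusted p = 0.274). Arc was the only member whose groups did not overlap at this age, with JR5558 below, a separation that 9.55% of tested genes showed in that direction and 19.6% in either. Egr3 had 1.98, 0.836 and 1.33 CPM in JR5558 and 1.34, 1.65 and 1.69 CPM in C57BL/6J (-0.16 ± 0.32), and Fosl2 had 7.51, 7.74 and 12.6 CPM in JR5558 and 7.52, 10.3 and 7.15 CPM in C57BL/6J (0.16 ± 0.22). Both overlapped.

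The 4-week JR5558 retinas differed from each other more than any other group in several members. Egr1 had 44.6, 18.5 and 141 CPM there, a 7.60-fold range, against 43.5, 51.6 and 58.5 CPM in C57BL/6J of that age. Fos had 30.6, 17.4 and 62.2 CPM in JR5558 and 33.6, 43.6 and 51.3 CPM in C57BL/6J, and Nr4a1 35.3, 26.2 and 70.9 CPM in JR5558 and 33.1, 47.3 and 36.7 CPM in C57BL/6J. Replicate 3 of JR5558 was the highest of its group for 9 of 10 members, Egr3 being the exception, and replicate 2 the lowest for 8. Jun followed the same order, at 62.9, 53.5 and 85.1 CPM in JR5558 beside 62.7, 54.3 and 48.4 CPM in C57BL/6J. Without JR5558 replicate 3 the log2 fold change of Egr1 was -0.69, against 0.41 ± 0.45 with it, and neither was called (edgeR adjusted p = 0.309 and 0.694). Ier2 had 25.9, 26.2 and 31.9 CPM in JR5558 and 29.1, 29.8 and 30.5 CPM in C57BL/6J and varied least in C57BL/6J.

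**Figure D3:**
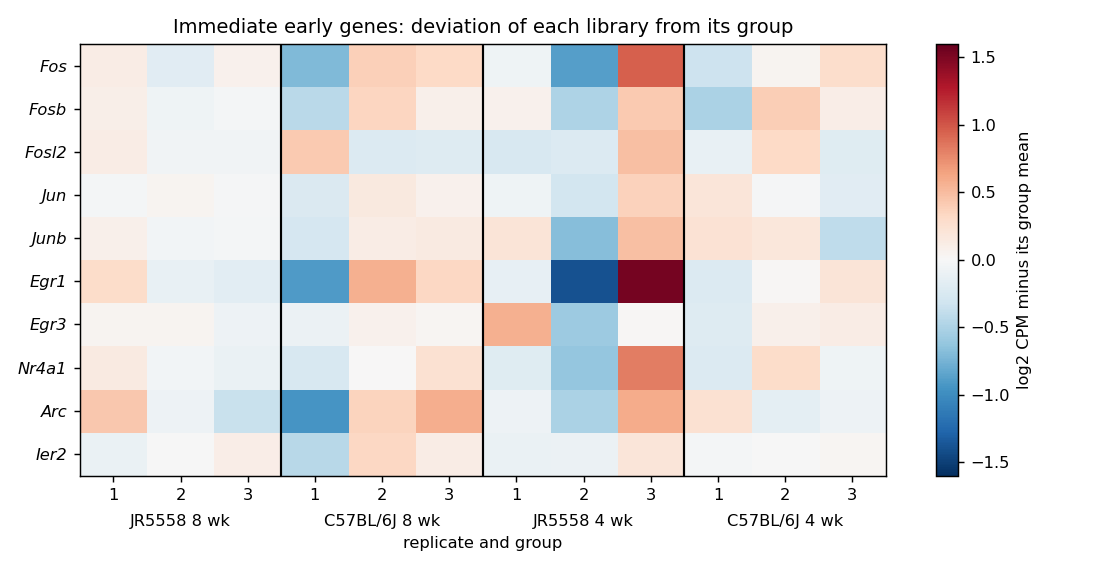
Deviation of each retina's log2 CPM from the mean of its group (colour scale) for the 10 members (rows) in 12 libraries (columns, replicates 1 to 3 of each group). JR5558 4-week replicate 3 is above its group mean and replicate 2 below it for most members, and C57BL/6J 8-week replicate 1 is low for all members but Fosl2.

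Pooled over the groups, mice of one group varied more in 9 of the 10 members than in most genes of similar level. The SD of log2 CPM within groups, pooled over the 4 groups, was 0.849 for Egr1 and 0.579 for Fos, each larger than in 99.9% of the genes within 2-fold of its level. It was 0.416 for Nr4a1 (99.5%) and 0.374 for Junb (99.0%), and the median over all tested genes was 0.182. Jun (0.219, 95.1%), Ier2 (0.225, 91.3%), Fosl2 (0.313, 88.7%), Arc (0.545, 86.5%) and Fosb (0.383, 83.9%) came next. Egr3, at 0.307, was more variable than 19.1% of genes of its level. The spread differed by group: in 4-week JR5558 retinas the SD was 1.46 for Egr1, 0.920 for Fos and 0.736 for Nr4a1, where the median of all tested genes in that group was 0.178, and 9 of 10 members were above that median. In the 8-week JR5558 group only 4 of 10 members were above its median of 0.117, with Egr1 at 0.257 and Fos at 0.159, and the other 6 were below it. In C57BL/6J, 9 of 10 members were above the median of 0.138 at 8 weeks, with Egr1 at 0.790 and Fos at 0.612, and 7 of 10 above that of 0.195 at 4 weeks. These group medians are over genes of all levels and are not matched to a member's level. Genes near the level of the 4 scarce members had median pooled SDs of 0.201 to 0.418. Those near the 6 abundant members had 0.115 to 0.138.

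The members also deviated together. Over 45 pairs of members, the Pearson correlation of their deviations from group means in 12 libraries had a median of 0.64 and ran from -0.29 to 0.98; it is given as a description, since members share each library's RNA. Fos and Egr1 followed each other most closely (r = 0.98, Spearman rho = 0.94, and r = 0.94 without the 2 libraries farthest out in Fos). Egr1 and Nr4a1 had r = 0.91 and rho = 0.89, and r fell to 0.64 without the 2 libraries farthest out. Jun and Junb had r = 0.87 and rho = 0.76, with r = 0.75 without the 2 farthest. All 3 negative pairs involved Fosl2, with Ier2 (-0.29), Arc (-0.11) and Egr3 (-0.05).

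Of 13702 candidate genes, the 8 closest to the members' mean pattern in these deviations were Ethe1 (r = 0.983), Rassf7 (0.966), Spry4 (0.962), Rnf6 (0.957), Ccsap (0.957), Tuba8 (0.955), Triap1 (0.953) and Cttnbp2nl (0.946). Spry4, an inhibitor of receptor kinase signalling, ranged over the libraries from 7.37 to 16.8 CPM, while Rnf6 moved only between 87.2 and 103 CPM. With group means left in, Rnf6 (r = 0.969), Ccsap (0.938), Shh (0.920), Qsox2 (0.907), Ethe1 (0.90), Csrnp1 (0.898) and Dusp1 (0.887) were among the 8 closest. Of these, Csrnp1, itself a gene of the immediate early type (1.62 to 6.29 CPM), and Dusp1, a phosphatase that switches off MAP kinases (19.7 to 68.3 CPM), had the largest ratios of highest to lowest CPM. These genes were picked as the extremes of that search, and no p is given.

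Between ages, Egr3 in JR5558 was the 1 call among the members. It had 3.50, 3.50 and 3.19 CPM at 8 weeks and 1.98, 0.836 and 1.33 CPM at 4 weeks, with no overlap (2.43-fold, log2 fold change 1.28 ± 0.31, edgeR adjusted p = 0.0435). In that comparison 0.676% of tested genes were called higher and 1.51% in either direction, and 12.0% had groups apart with 8 weeks higher. The call ended in 5 of the 6 fits without 1 library, the exception being the fit without JR5558 4-week replicate 1, with adjusted p of up to 0.168, and it ended with the replicate number as a block (1.30, adjusted p = 0.0715). Without JR5558 4-week replicate 3, Fos (1.11, adjusted p = 0.0281), Fosl2 (0.79, 0.0356) and Nr4a1 (0.72, 0.0209) passed and Egr3 did not (1.25, 0.0502). The other 9 members had log2 fold changes of -0.20 to 0.50 with all libraries.

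In C57BL/6J, 0 of 10 members were called between 8 and 4 weeks by edgeR, where 0.431% of tested genes were, and 0 had an unadjusted p under 0.05. DESeq2 called 0 of the 8 members for which it gave an adjusted p, and gave none for Egr3 and Arc. Egr3 was lower at 8 weeks in every retina, at 1.07, 1.22 and 1.18 CPM, against 1.34, 1.65 and 1.69 CPM at 4 weeks (log2 fold change -0.43 ± 0.33, edgeR adjusted p = 0.577). Arc had 0.887, 2.32 and 2.73 CPM at 8 weeks and 3.73, 2.82 and 2.96 CPM at 4 weeks, also without overlap (-0.69 ± 0.38, adjusted p = 0.418). Groups apart in this direction made up 10.0% of tested genes.

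Whether the strain effect differed by age was tested directly. By edgeR this interaction was called for 0 of 10 members (DESeq2 also 0) and for 0.0927% of all tested genes. Egr3 had the largest value, with a log2 difference of 1.71 ± 0.45 (unadjusted p = 0.00137, edgeR adjusted p = 0.327), followed by Arc (1.17 ± 0.53), Fos (0.88 ± 0.45) and Fosl2 (0.71 ± 0.30). Egr3, Arc and Fosl2 were the 3 with an unadjusted p under 0.05. For Junb, called at both ages, it was 0.08 ± 0.30 (adjusted p = 0.979).

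**Figure D4:**
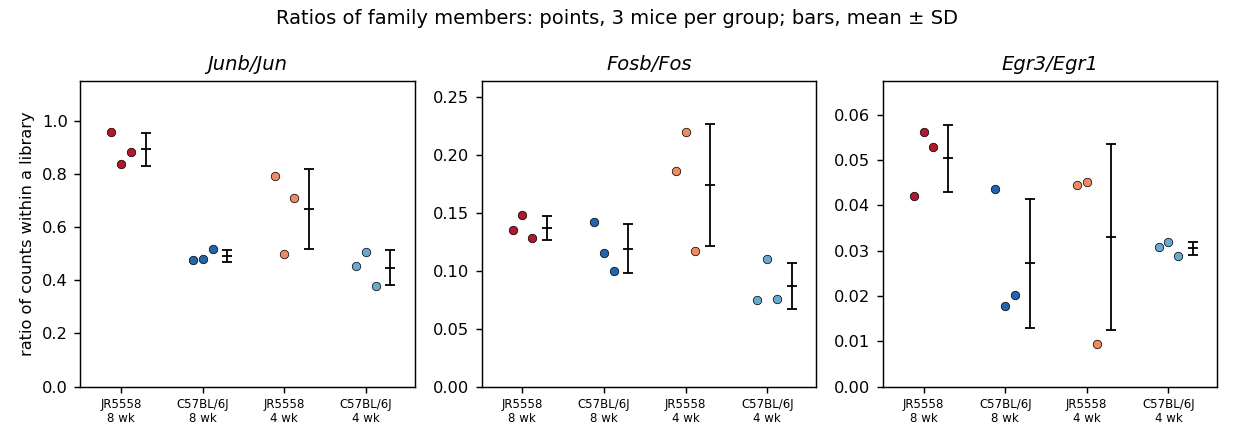
Ratios of counts of related members within each library, by group (points are mice, bars mean ± SD, n = 3). At 8 weeks the Junb to Jun ratio is 0.837 to 0.959 in JR5558 and 0.476 to 0.517 in C57BL/6J, while Fosb to Fos and Egr3 to Egr1 overlap between the strains.

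Ratios inside the other families overlapped between strains at 8 weeks. The ratio of Egr3 to Egr1 counts was 0.0420, 0.0562 and 0.0529 in JR5558 and 0.0436, 0.0177 and 0.0203 in C57BL/6J. The high C57BL/6J value is replicate 1, where Egr1 was low. Fosl2 to Fos gave 0.255, 0.278 and 0.233 in JR5558 and 0.494, 0.148 and 0.157 in C57BL/6J, with the same C57BL/6J replicate high. At 4 weeks the ratio of Fosb to Fos was 0.186, 0.220 and 0.117 in JR5558 and 0.0746, 0.110 and 0.0761 in C57BL/6J. These groups were apart by a narrow gap, and neither Fosb nor Fos was called at that age. The ratios of Junb to Jun, Fosl2 to Fos and Egr3 to Egr1 overlapped between the strains at 4 weeks.

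Related genes were read from 7 lists. The list named feedback inhibitors mixes genes that damp kinase and cytokine signals with stress sensors such as Gadd45b. It held 3 of 19 tested genes called higher and 0 lower at 8 weeks (median log2 fold change 0.28, beside 0.00 for all genes). Over all tested genes 2.54% were called higher and 2.63% lower in that comparison. Gadd45b, a stress sensor upstream of MAP kinases, had 22.3, 24.9 and 24.8 CPM in JR5558 against 8.36, 11.2 and 9.57 CPM in C57BL/6J (log2 fold change 1.31 ± 0.18, edgeR adjusted p = 9.74e-05). Dusp1 had 68.3, 60.2 and 62.5 CPM in JR5558 against 23.3, 33.7 and 33.4 CPM in C57BL/6J (1.08 ± 0.24, adjusted p = 0.00866), and its locus overlapped Ergic1 on the other strand, which had 20431 counts summed over the 12 libraries. Both were well apart between the strains. The salt-inducible kinase Sik1 had 25.7, 23.5 and 22.9 CPM in JR5558 against 13.7, 13.5 and 14.5 CPM in C57BL/6J (0.79 ± 0.20, adjusted p = 0.0285). The Dusp1 call ended without C57BL/6J replicate 1 (0.92, adjusted p = 0.0715). That of Sik1 ended in each of the 6 fits without 1 library, with log2 fold changes of 0.75 to 0.83 and adjusted p of 0.0693 to 0.106.

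Among relatives of the members at 8 weeks, Nr4a3, a sister of Nr4a1, had 4.91, 4.26 and 6.15 CPM in JR5558 and 2.29, 1.55 and 0.748 CPM in C57BL/6J. It was 1 of 5 tested EGR and NR4A relatives and was higher (log2 fold change 1.72 ± 0.46, edgeR adjusted p = 0.0351), though 5 of the 6 fits without 1 library ended the call, all but the one without C57BL/6J replicate 1 (adjusted p of 0.0581 to 0.155). Of 6 tested AP-1 and ATF relatives 1 was called: Mafg, a small MAF factor, was lower (-0.41 ± 0.10, adjusted p = 0.0223), a call that 4 of the 6 fits without 1 library ended (adjusted p of 0.0730 to 0.153), the exceptions being those without C57BL/6J replicate 3 and without JR5558 replicate 1. Of 18 other immediate early factors, Per1, a clock gene that cyclic AMP also induces, was higher at 128, 126 and 115 CPM in JR5558 against 85.6, 85.2 and 81.8 CPM in C57BL/6J (0.55 ± 0.12, adjusted p = 0.00728). The other 17, Npas4 and Btg2 among them, did not pass. Over all tested genes 2.54% were called higher at 8 weeks, 2.63% lower and 5.18% in either direction, and 1 of 18 is close to the last of these.

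Of 16 synaptic and surface effectors, 2 were higher and 0 lower at 8 weeks, beside the 2.54% and 2.63% of all tested genes. Ccn2, a matricellular protein made under YAP and serum response factor, had 62.7, 70.6 and 78.2 CPM in JR5558 against 22.3, 27.3 and 23.5 CPM in C57BL/6J (log2 fold change 1.53 ± 0.17, edgeR adjusted p = 7.49e-06). Plk2, a polo-like kinase of active synapses, had 55.6, 53.1 and 58.9 CPM in JR5558 against 27.8, 34.0 and 37.2 CPM in C57BL/6J (0.76 ± 0.11, adjusted p = 0.000225). Of 27 upstream kinases and factors, the calcium-dependent kinase Camk4 was higher (0.69 ± 0.14, adjusted p = 0.00535) and the neuronal factor Mef2c lower (-0.37 ± 0.09, adjusted p = 0.0212, ended in 5 of 6 fits without 1 library, all but the one without C57BL/6J replicate 1). The 2 calls among the upstream genes compare with 5.18% of all tested genes called in either direction. Among called genes of these lists, Mafg overlapped Sirt7, with 12194 counts summed over the 12 libraries, and Ccn2, Camk4 and Mef2c overlapped other-strand genes with 189, 88 and 480 counts. The 13 heat shock genes had median log2 fold changes of -0.10 at 8 weeks and -0.05 at 4 weeks.

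**Figure D5:**
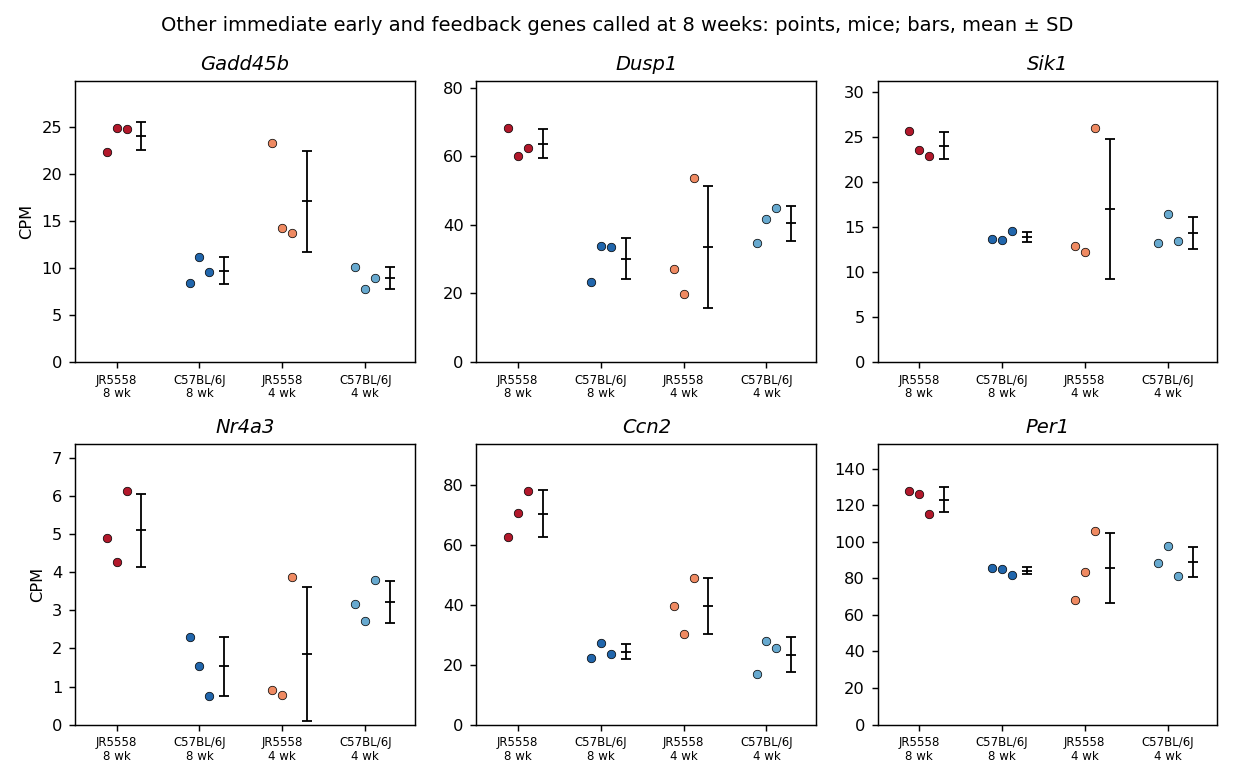
CPM of 6 related genes called higher in JR5558 at 8 weeks, for each retina by group (points are mice, bars mean ± SD, n = 3; axes start at 0). In all of them but Gadd45b, the highest 4-week JR5558 point is replicate 3, the retina with the highest Fos and Egr1.

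At 4 weeks, 3 of 19 genes of the list named feedback inhibitors were higher and 2 lower, beside 3.27% and 2.90% of all tested genes. Gadd45b had 23.3, 14.2 and 13.7 CPM in JR5558 and 10.1, 7.76 and 8.94 CPM in C57BL/6J (log2 fold change 0.94 ± 0.18, edgeR adjusted p = 0.00296), and the pseudokinase Trib1 was higher as well (0.37 ± 0.08, adjusted p = 0.00759). The RAS pathway inhibitors Spred1 (-0.35 ± 0.09, adjusted p = 0.0197) and Spred2 (-0.43 ± 0.12, adjusted p = 0.0370) were lower, and each call ended without 1 of several libraries. Ccn2 was higher (0.76 ± 0.17, adjusted p = 0.00963; 0.0580 without JR5558 replicate 3), and the synaptic scaffold Homer1 (-0.45 ± 0.11, adjusted p = 0.0202; up to 0.101 without 1 library) and the clock gene Per2 (-0.53 ± 0.13, adjusted p = 0.0154; up to 0.0654) were lower. Camk4 (0.78 ± 0.14) and Mef2c (-0.46 ± 0.09) were called in the same directions as at 8 weeks. These were 1 higher and 1 lower of 16 effectors, 1 lower of 18 other immediate early factors, and 1 higher and 1 lower of 27 upstream genes. Over all tested genes 6.16% were called in either direction at 4 weeks. The shares called among the other immediate early factors and the upstream genes are close to that. The 5 EGR and NR4A relatives had a median of -0.17.

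Between ages in JR5558, Nab2, the corepressor that binds EGR proteins and is induced by them, had 18.7, 17.7 and 18.7 CPM at 8 weeks against 9.04, 9.78 and 10.7 CPM at 4 weeks (log2 fold change 0.90 ± 0.18, edgeR adjusted p = 0.0135). Its locus overlapped 3 genes on the other strand, and the call ended without JR5558 4-week replicate 1 or 2 or 8-week replicate 3 (adjusted p up to 0.0757). Sgk1, a kinase gene induced by glucocorticoids, was higher at 8 weeks in JR5558 (0.85 ± 0.08, adjusted p = 1.47e-05) and in C57BL/6J (0.58 ± 0.08, adjusted p = 0.00315). Ccn2 (0.83 ± 0.16), Per1 (0.52 ± 0.12) and Hspa1b (0.64 ± 0.11) were higher and Trib1 (-0.37 ± 0.08) lower at 8 weeks in JR5558, and the neuropeptide gene Vgf higher in C57BL/6J (0.70 ± 0.12, adjusted p = 0.0173). Of these, only the Sgk1 calls and that of Hspa1b held in every fit without 1 library. In JR5558, 1 of 5 EGR and NR4A relatives, 2 of 16 effectors, 1 of 18 other immediate early factors and 1 of 13 heat shock genes were called higher. There 1 of 19 feedback inhibitors was called lower, and 0 of 27 upstream genes in either direction. Over all tested genes 1.51% were called between ages in JR5558. In C57BL/6J 2 of 16 effectors were called higher, beside 0.431% of all tested genes called in either direction.

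Markers of several cell types differed between the strains at both ages, and some between ages in JR5558 and in C57BL/6J. At 8 weeks the differences between strains were as follows. The summed CPM of 8 reactive glia genes was 730 to 747 in JR5558 and 474 to 490 in C57BL/6J, that of 8 microglia and macrophage genes 55.3 to 67.5 against 34.8 to 39.7, and that of 8 endothelial and pericyte genes 382 to 400 against 319 to 321 (though the median log2 fold change of that list was -0.04). For 9 pigment epithelium genes it was 352 to 533 in JR5558 and 147 to 257 in C57BL/6J. For 13 amacrine and ganglion cell genes the ranges met, at 2400 to 2460 against 2450 to 2560. No gene of these lists was at 0 in a whole group, and their part in the results was not tested. For 8 Müller glia genes it was 6500 to 6940 against 5330 to 5730, and for 8 rod genes 54800 to 56600 against 62200 to 64700. Bipolar cell markers summed to 1220 to 1260 in JR5558 and 1280 to 1360 in C57BL/6J, and blood cell markers to 20.1 to 21.5 in JR5558 and 14.6 to 46.7 in C57BL/6J. Lens markers, with Lim2 at 0 in every group, summed to 7.62 to 60.4 in JR5558 and 6.02 to 45.2 in C57BL/6J.

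At 4 weeks the sums were also apart between strains, at 577 to 848 in JR5558 against 414 to 493 in C57BL/6J for reactive glia, 46.7 to 57.3 against 35.9 to 41.9 for microglia and macrophages, and 454 to 493 against 313 to 364 for endothelium and pericytes. They were 284 to 462 in JR5558 against 67.8 to 224 in C57BL/6J for pigment epithelium, and 1420 to 1510 against 1230 to 1280 for bipolar cells. The Müller glia sums, at 5380 to 6200 in JR5558 and 4410 to 5560 in C57BL/6J, overlapped. Each of the 8 Müller glia genes nevertheless had a positive log2 fold change at 4 weeks (median 0.32). By edgeR 5 of them were called higher and 0 lower, beside 3.27% and 2.90% of all tested genes. Between ages in JR5558, bipolar cell markers summed to 1220 to 1260 at 8 weeks and 1420 to 1510 at 4 weeks. Endothelial and pericyte markers summed to 382 to 400 at 8 weeks and 454 to 493 at 4 weeks. Blood cell markers summed to 20.1 to 21.5 at 8 weeks and 43.6 to 59.5 at 4 weeks. Müller glia markers summed to 6500 to 6940 at 8 weeks and 5380 to 6200 at 4 weeks in JR5558. Of those 8 genes, 0 were called between these ages by edgeR and only 4 had a positive log2 fold change (median 0.06). In C57BL/6J, rod markers summed to 62200 to 64700 at 8 weeks and 53800 to 58200 at 4 weeks. Of the 8 rod genes, 2 were called higher at 8 weeks there and 0 lower by edgeR, beside 0.431% of all tested genes in either direction. The other marker sums of C57BL/6J overlapped or met between ages.

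Among the 4-week JR5558 retinas, replicate 3, the highest in Egr1, also had the highest sums of Müller glia (5390, 5380 and 6200 CPM in replicates 1 to 3), amacrine and ganglion cell (2350, 2320 and 2630) and blood cell markers (43.6, 52.2 and 59.5). It was not the highest in reactive glia (848, 577 and 679) or microglia and macrophage markers (57.3, 46.7 and 53.8). It was the lowest in bipolar cell (1450, 1510 and 1420), endothelial and pericyte (493, 489 and 454) and lens markers (1.98, 32.7 and 0.491). In rod (52900, 59300 and 56200) and pigment epithelium markers (462, 284 and 439) it lay between replicates 1 and 2. In C57BL/6J at 8 weeks, replicate 1, the lowest in Egr1, had blood cell markers at 46.7 CPM beside 19.2 and 14.6 in the other 2 retinas. The part of these differences in the members' values was not tested.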

How the data were processed

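RNA of 12 whole retinas (3 mice in each of 4 groups) was sequenced as paired-end reads after poly-A selection, per the labels' protocols. The submitters' processing notes name fastp, HISAT2 2.0.5, featureCounts 1.5.0-p3 and the mouse build mm10; options, and whether counting used strand, are not given in the sources used here. The authors deposited raw read counts per gene, FPKM values, and their own comparisons as a log2 fold change, a p-value and an adjusted p-value. Gene starts in the deposited table differ from those of GRCm38.p6, so its positions are not printed; promoter sequences and coordinates are RefSeq's.

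The counts were tested in edgeR 4.0.16 (R 4.3.3): filterByExpr by group kept 18334 of 56748 genes, TMM scaled the libraries, and a quasi-likelihood fit of 4 group means over 12 libraries gave 5 contrasts. P-values were adjusted by Benjamini-Hochberg over all 18334 genes, with a threshold of 0.05. CPM, computed from the counts, are relative to the scaled library size. FPKM was used only for levels between genes. The code was tested on simulated data.

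The members and the gene lists were chosen with earlier results of these data known. All 10 members are named; of each list, up to 4 genes past the threshold per contrast, those with the smallest adjusted p, are named. Genes of like pattern are the 8 named genes with mean CPM of at least 1 and the highest Pearson correlation with the members' mean standardised log2 CPM. One of these genes is not reported here. The alternatives tried were RLE normalization, other filters, DESeq2 1.42.0, a replicate block, fits of only the 2 groups compared, and fits without each library.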

Additional observations from a re-analysis of the deposited data

How the results depend on the processing

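The members called between strains kept their direction in every alternative tried, and Egr3 at 8 weeks passed in all of them. Fits of only the 2 groups compared called 2183 genes and 6 members between strains at 8 weeks, 558 genes and 0 members at 4 weeks, 544 genes between ages in JR5558 and 22 in C57BL/6J. DESeq2 called 705 genes between ages in JR5558, 410 in C57BL/6J and 62 in the interaction. Without a filter on low counts, all genes were tested but the 25020 of 56748 with 0 counts in every library. That setting called 1290 genes between strains at 8 weeks and 1456 at 4 weeks. It called 854 between ages in JR5558, 445 in C57BL/6J and 96 in the interaction. Of the 10 members it called 7 at 8 weeks, 2 at 4 weeks, 2 between ages in JR5558, 1 in C57BL/6J and 1 in the interaction. The cause was not tested. Filters and fits on fewer libraries can change the number of genes tested. Shares of tested genes are not given for these settings, so their member counts have no background beside them. RLE scaling moved the median of all genes by at most 0.0039 on the log2 scale.

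Same-numbered libraries did not deviate together over all tested genes: their deviations had correlations of -0.114 to 0.087 over 18 pairs. This measure cannot show a pairing that touches only a few genes. With the replicate block, 0 members were called between ages in JR5558 (Egr3 1.30, edgeR adjusted p = 0.0715), and Nr4a1 between ages in C57BL/6J was -0.01, against 0.01 without it.

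Leaving out 1 library gave 538 to 649 genes and 2 to 3 members at 8 weeks, 814 to 1162 and 0 to 1 at 4 weeks, 63 to 689 and 0 to 3 between ages in JR5558, 16 to 125 and 0 in C57BL/6J, and 6 to 38 and 0 in the interaction. Log2 values that changed sign in these fits ran as follows. Between strains, they were -0.36 to 0.01 for Ier2 at 8 weeks, and at 4 weeks -0.69 to 0.85 for Egr1, -0.53 to 0.09 for Egr3, -0.83 to 0.11 for Fos, -0.12 to 0.32 for Fosl2 and -0.34 to 0.44 for Nr4a1. Between ages in JR5558, they were -0.43 to 1.11 for Egr1, -0.11 to 0.05 for Ier2, -0.34 to 0.01 for Jun, -0.07 to 0.44 for Junb and -0.06 to 0.72 for Nr4a1. In C57BL/6J, they were -0.32 to 0.30 for Egr1, -0.21 to 0.21 for Fosb, -0.16 to 0.21 for Ier2, -0.10 to 0.09 for Jun, -0.07 to 0.24 for Junb and -0.13 to 0.16 for Nr4a1. In the interaction, they were -0.40 to 1.14 for Egr1, -0.27 to 0.10 for Ier2, -0.32 to 0.03 for Jun, -0.19 to 0.33 for Junb and -0.07 to 0.71 for Nr4a1. None of these was called with all libraries. Depth limits Egr3 and Arc most, at 16 to 79 and 19 to 71 counts per library.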
